A study of Drosophila melanogaster with 8 samples.

Results

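Mitochondrially encoded transcripts are the RNAs made from the mitochondrial genome itself. Here they are every gene of the deposited count table whose name starts with mt:, which gave 37 of 17473 genes. They comprise 13 mRNAs, 2 rRNAs and 22 tRNAs, and all 37 matched the mitochondrial chromosome of the Ensembl annotation, which is used only for lengths, strands and gene order. RNA of Drosophila melanogaster cells labelled as intestinal stem cells, the dividing cells of the fly gut, was sequenced in 8 libraries that form 4 groups of 2. The FM group had mutant mtDNA with FOXO knockdown, the FC group control mtDNA with FOXO knockdown, the M group mutant mtDNA and the C group control mtDNA. FOXO, a transcription factor, is held back by insulin signalling, and the series addresses what disrupted oxidative phosphorylation does to gene expression and what FOXO adds. In all groups RNA was taken from fixed, sonicated material as RNA held by FLAG-tagged pAbp, the poly(A)-binding protein. The labels give neither the mutation in the mtDNA, nor the driver of the tag and of the knockdown, nor the age or sex of the flies. They do not state that replicates came from separate flies, so p-values measure the spread between these libraries, which may be technical.

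The mitochondrial genome of animals carries genes for a small part of the respiratory chain. Its mRNAs encode core subunits of complex I (mt:ND genes), complex III (mt:Cyt-b), complex IV (mt:Co genes) and the ATP synthase, complex V (mt:ATPase genes), and all other subunits come from nuclear genes. The genome is transcribed as long RNAs from both strands, which are cut at the tRNAs into single transcripts, and mitochondrial mRNAs and rRNAs carry short poly(A) tails. The rRNAs and tRNAs serve the ribosome inside the organelle. By the annotation, mt:ND1, mt:ND4, mt:ND4L and mt:ND5, both rRNAs and 8 tRNAs lie on the minor strand, and the other 9 mRNAs and 14 tRNAs on the major strand.

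The libraries held 21133996 to 39327066 counts, and 4103725 to 32186975 counts outside nuclear rRNA genes. Nuclear rRNA took 30.8% of counts in M replicate 1 and 18.2% in C replicate 1, but 79.4% to 83.8% in the other 6 libraries. The libraries therefore fall into 2 with low and 6 with high nuclear rRNA, and the low ones are 1 of M and 1 of C. The labels name no batch for this split. No fall of foxo itself passed with knockdown. The gene had 52.1 and 53.1 CPM (counts scaled to a common library size, with TMM factors) in FM, 52.1 and 48.1 in FC, 49.8 and 66.6 in M, and 43.3 and 61.9 in C. FM thus lay between the low-rRNA and the high-rRNA library of M, and FC between those of C. FC differed from C by -0.28 ± 0.13 and FM from M by -0.37 ± 0.13 on the log2 scale (SE; edgeR adjusted p = 0.517 and 0.274, with a term for the library class).

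The mitochondrial share of counts outside nuclear rRNA was smaller in libraries with mutant mtDNA than in their counterparts with control mtDNA. It was 2.37% and 2.62% in FM, against 3.49% and 2.98% in FC. It was 0.399% and 2.42% in M replicates 1 and 2, against 0.695% and 5.02% in C replicates 1 and 2. The FM and FC ranges did not overlap, and M lay below C in each replicate number. Within M and within C, however, the high-rRNA library exceeded the low-rRNA library by more than M and C differed. Wilson 95% intervals, which cover counting error only, were narrow (0.397% to 0.402% in M replicate 1 and 2.41% to 2.43% in M replicate 2). The share in a bulk sample does not tell fewer mitochondrial RNAs per cell from fewer cells that carry them. All libraries hold RNA taken with tagged pAbp, so neither can be told apart from how much mitochondrial RNA came along in that step. This was not tested. Most of it was the large rRNA and a few mRNAs: over all libraries, 633305 counts lay on the mRNAs, 651434 on the rRNAs and 3284 on the tRNAs.

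**Figure D1:**
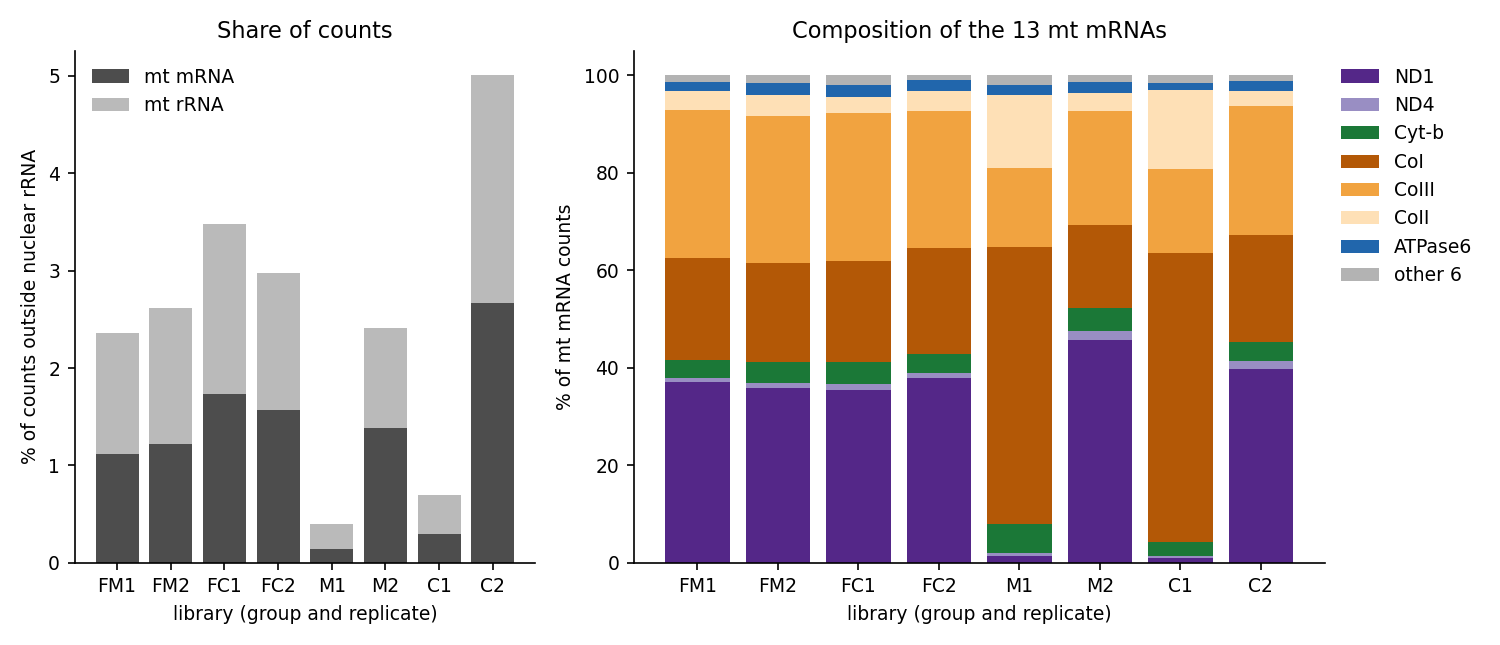
Left, the mitochondrial mRNA and rRNA counts of each library as a percent of counts outside nuclear rRNA (stacked bars, y axis); right, how the counts of the 13 mitochondrial mRNAs divide among genes in percent (stacked bars, y axis). Libraries run along the x axis by group and replicate number. M replicate 1 and C replicate 1 have the lowest shares and are mostly mt:CoI, while mt:ND1 leads the mRNAs of the other 6.

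Levels per length differed by more than 3 orders of magnitude between members. Per kilobase of gene, the large rRNA mt:lrRNA had a mean of 2551 CPM in FM, 3057 in FC, 1307 in M and 2639 in C. The next were mt:ND1, a membrane subunit of complex I, with 1169 CPM per kilobase in FM and 1666 in FC, and mt:CoIII of complex IV with 1156 in FM and 1586 in FC. These genes did not separate from each other beyond the spread of the FM and FC libraries, which ran from 1143 to 1677 for mt:ND1 and from 1115 to 1707 for mt:CoIII. Then came mt:CoI, the catalytic subunit of complex IV, with 403 CPM per kilobase in FM and 589 in FC, and mt:CoII with 180 in FM and 228 in FC. At the low end were mt:ND2, mt:ND3 and mt:ND6 of complex I, with 1.14 to 2.73 CPM per kilobase in FM and FC. The small rRNA mt:srRNA had 34.0 CPM per kilobase in FM and 48.5 in FC, far below the large one: the libraries held 80.0 to 174.5 counts on mt:lrRNA for each count on mt:srRNA.

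The order of the mRNAs was not the same in all libraries. In the 6 high-rRNA libraries mt:ND1 held 35.4% to 45.7% of mitochondrial mRNA counts, mt:CoIII 23.3% to 30.4%, mt:CoI 17% to 21.9% and mt:CoII 3.08% to 4.25%. In the low-rRNA libraries mt:ND1 held only 1.5% in M replicate 1 and 0.899% in C replicate 1, while mt:CoI held 56.8% and 59.1%, and mt:CoII 15.1% and 16.2%. Complex IV mRNAs together made up 88.0% of mitochondrial mRNA counts in M replicate 1 and 92.6% in C replicate 1, against 44.0% to 55.0% in the others. Minor-strand mRNAs made up 3.76% in M replicate 1 and 2.60% in C replicate 1, against 38.4% to 48.8% in the others.

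The gap between replicates of 1 group thus depended on the gene. The CPM ratio of replicate 2 to replicate 1 was, for mt:ND1, 278.6 in M and 399.1 in C, resting on 404 counts in M replicate 1 and 863 in C replicate 1. For mt:ND4, another minor-strand complex I mRNA, it was 30.8 in M and 31.7 in C. For mt:CoIII it was 13.2 in M and 13.8 in C, for mt:CoI 2.73 in M and 3.35 in C, and for mt:CoII 2.22 in M and 1.72 in C. All 6 high-rRNA libraries lay above both low-rRNA libraries for 15 of the 25 members tested, 8 of them mRNAs, against 20% of all 11561 genes tested, and below them for 0 members, against 25.8% of all genes. The class of a library and its mitochondrial RNA moved together, and the labels do not say what set the class.

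**Figure D2:**
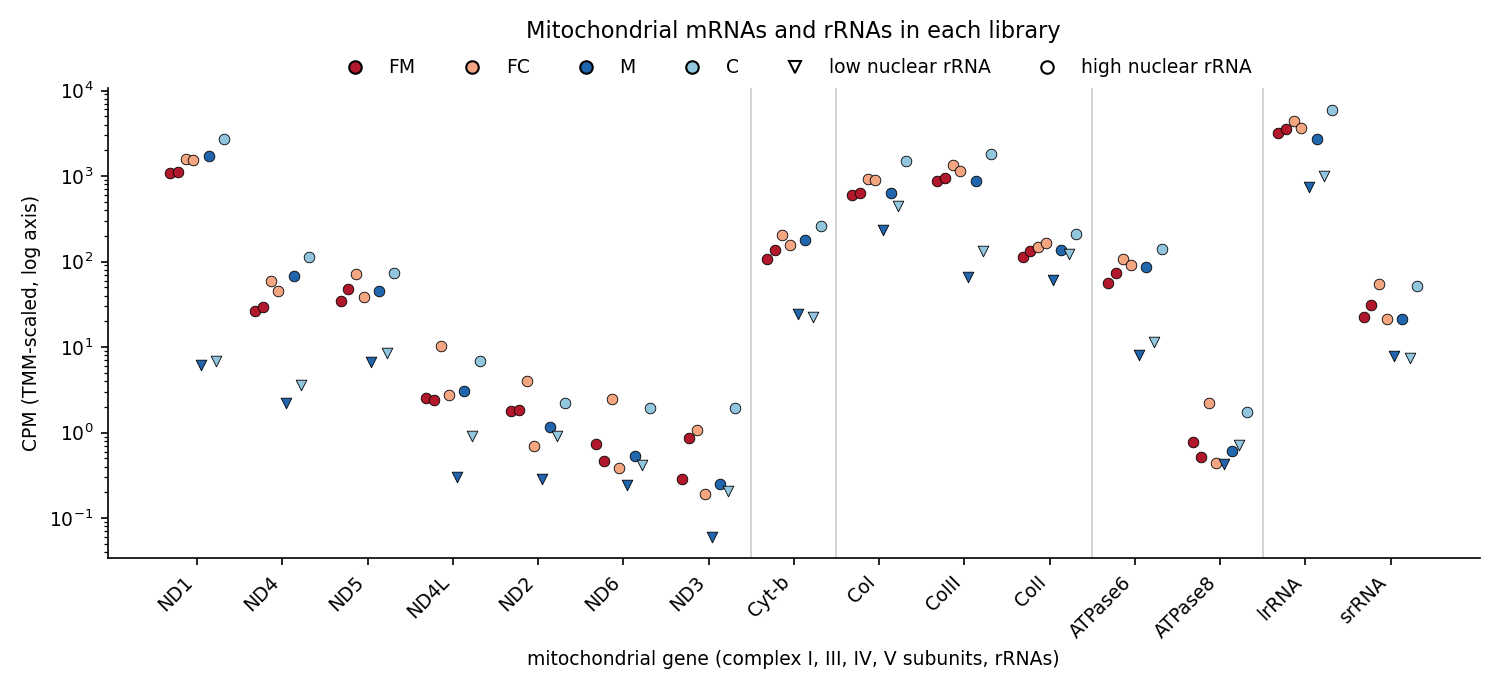
CPM of the 13 mitochondrial mRNAs and 2 rRNAs (x axis, ordered by respiratory complex) in each of the 8 libraries (log y axis). Triangles are the low-rRNA libraries M replicate 1 and C replicate 1, and circles are the 6 others; mt:ND1 lies at 6.12 and 6.87 CPM in the triangles and at 1074 to 2744 CPM in the circles.

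With libraries this far apart inside M and inside C, the main test, a fit with 1 mean per group, found no changed gene in any comparison. For M against C, FM against FC, their average, their difference, FC against C and FM against M it called 0 of 25 members and 0 of 11561 genes (0%), while 215 to 643 genes had an unadjusted p under 0.05, none of them a mitochondrial mRNA and 0 to 2 of them other members. DESeq2 in the same design called 0 to 59 genes and no member. A fit that adds a term for the library class sets M beside C within each class, and its results follow. "Fell" and "rose" refer to that fit. Where members or list genes at an unadjusted p under 0.05 are counted in that fit, the share of all genes at this threshold is not given. Such counts therefore do not show an excess over all genes.

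With mutant mtDNA and without FOXO knockdown, the mRNAs of complex IV, 1 mRNA of complex I and the large rRNA fell. In M against C the fit with the library class called 5 of 25 members, all lower, against 2.08% of all genes in either direction and 0.64% lower. M was lower than C in both replicate numbers for 14 of 25 members, among them 12 of the 13 mRNAs, against 27.4% of all genes, and higher in both for 0, against 29.5%.

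mt:CoI had 232 and 634 CPM in M replicates 1 and 2, against 452 and 1514 CPM in C replicates 1 and 2. M was at 0.514 of C in replicate 1 and at 0.419 in replicate 2, so both low-rRNA and high-rRNA libraries differed by about the same factor. It fell by 1.11 ± 0.12 on the log2 scale (SE; edgeR adjusted p = 0.00101). mt:CoIII had 65.8 and 869 CPM in M, against 133 and 1825 CPM in C, ratios of 0.496 and 0.476. It fell by 1.04 ± 0.12 (edgeR adjusted p = 0.00144). mt:CoII, which carries the site where cytochrome c gives its electrons, had 61.7 and 137 CPM in M, against 124 and 213 CPM in C. The ratios were 0.499 and 0.645, and it fell by 0.82 ± 0.13 (edgeR adjusted p = 0.00723).

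Of the complex I mRNAs, mt:ND4, a subunit of the proton-pumping membrane arm, had 2.20 and 67.6 CPM in M, against 3.61 and 114 CPM in C. The ratios were 0.609 and 0.591, and it fell by 0.74 ± 0.15 (edgeR adjusted p = 0.0263). mt:ND1 had 6.12 and 1706 CPM in M, against 6.87 and 2744 CPM in C, and its difference of -0.44 ± 0.14 did not pass (edgeR adjusted p = 0.170). It was -0.67 without M replicate 1 or C replicate 1, but -0.17 without M replicate 2 and -0.21 without C replicate 2. Each of these fits sets 1 M library against 1 C library, since the class term takes up the unmatched one. mt:ND5, also of the membrane arm, had 6.76 and 44.96 CPM in M, against 8.48 and 74.3 CPM in C, a difference of -0.53 ± 0.24. mt:ND2, mt:ND3, mt:ND4L and mt:ND6 had fitted differences of -1.29 to -2.37 with SEs of 0.53 to 1.26, and each had 685 or fewer counts in all. None of them passed, and mt:ND4L came nearest, at an edgeR p of 0.0269 unadjusted and 0.326 adjusted.

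mt:ATPase6, the subunit of the ATP synthase that forms the proton path, had 8.18 and 87.1 CPM in M, against 11.5 and 140.3 CPM in C, a difference of -0.60 ± 0.14 just short of the threshold (edgeR adjusted p = 0.0626). It passed at -0.59 when any 1 FM or FC library was left out. It was -0.67 without M replicate 1 or C replicate 1, where the comparison again sets 1 M library against 1 C library. mt:ATPase8, whose gene overlaps mt:ATPase6 by 7 bases, had 244 counts in all and a difference of -1.13 ± 0.90. mt:Cyt-b, the cytochrome of complex III, had 24.6 and 180 CPM in M, against 22.7 and 262 CPM in C. It was the only mRNA not lower in both replicate numbers, with ratios of 1.08 and 0.687. mt:lrRNA had 743 and 2717 CPM in M, against 1008 and 5980 CPM in C, ratios of 0.738 and 0.454. It fell by 0.79 ± 0.17 (edgeR adjusted p = 0.0361). mt:srRNA had 7.82 and 21.2 CPM in M, against 7.53 and 52.0 CPM in C, a difference of -0.62 ± 0.39 that did not pass.

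Over the 13 mRNAs the median log2 difference of M against C was -1.04, and all 13 were negative, where the median over all genes was 0.01. The calls of mt:ND4 and mt:lrRNA were lost without M replicate 2 (edgeR adjusted p = 0.0717 and 0.0862) and without C replicate 2 (0.0750 and 0.0582). The mt:lrRNA difference shrank there to -0.44 and -0.48, and was -1.12 without M replicate 1 or C replicate 1. Each of these left-out fits sets 1 M library against 1 C library. When only the 4 libraries of M and C were fitted with the class term, no member passed, with edgeR adjusted p of 0.0521 for mt:CoI at -1.09, 0.0603 for mt:CoIII at -1.03, 0.104 for mt:CoII at -0.81, 0.109 for mt:ND4 at -0.72 and 0.261 for mt:lrRNA at -0.77.

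Under FOXO knockdown all libraries were of the high-rRNA class. By raw counts, replicates differed less than those of M and C, with a median chi-square per gene between the libraries of a group of 1.98 in FM and 4.81 in FC, against 146 in M and 196 in C (0.455 under sampling noise alone). Expected counts came from library totals with nuclear rRNA included. The values of M and C therefore also carry the split in nuclear rRNA, and are not the spread on the scale of the fits. Some members still lay apart in FC, such as mt:ND4L with 10.4 and 2.74 CPM, mt:ND2 with 3.96 and 0.70 CPM and mt:srRNA with 55.3 and 21.1 CPM. Both FM libraries lay below both FC libraries for 13 of 25 members, 8 of them mRNAs, against 17.5% of all genes, and above them for 2, neither an mRNA, against 23.3%. The fit with the library class called 1 of 25 members, against 0.164% of all genes in either direction and 0.0519% lower.

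That member was mt:ND4, with 26.2 and 29.8 CPM in FM, against 58.5 and 45.8 CPM in FC. It averaged 28.01 ± 2.57 CPM in FM and 52.2 ± 8.97 CPM in FC (SD, n = 2 each), and it fell by 0.90 ± 0.15 on the log2 scale (SE; edgeR adjusted p = 0.0370). The call was lost without FC replicate 1 (edgeR adjusted p = 0.159), without FM replicate 1 (0.195), and with sizes from total counts (0.165).

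The other abundant mRNAs were lower in FM by smaller amounts. mt:CoI had 601 and 637 CPM in FM, against 921 and 888 CPM in FC, a difference of -0.55 ± 0.12 (edgeR adjusted p = 0.132). mt:ND1 had 1074 and 1122 CPM in FM, against 1574 and 1554 CPM in FC, a difference of -0.51 ± 0.14. mt:CoIII had 880 and 945 CPM in FM, against 1347 and 1156 CPM in FC. For each of these genes the FM and FC values did not overlap, though none passed. mt:ATPase6 had 56.4 and 73.1 CPM in FM, against 106.8 and 92.4 CPM in FC, a difference of -0.62 ± 0.14. mt:Cyt-b had 108 and 137 CPM in FM, against 203 and 156 CPM in FC. mt:CoII had 113 and 133 CPM in FM, against 148 and 165 CPM in FC, the smallest difference among the abundant mRNAs at -0.35 ± 0.13. mt:lrRNA had 3189 and 3567 CPM in FM, against 4420 and 3676 CPM in FC, a difference of -0.26 ± 0.17. The remaining mRNAs and mt:srRNA had differences of -0.15 to -1.40 with SEs of 0.24 to 1.20.

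When the low-rRNA libraries were left out, M and C kept 1 library each, so the spread was estimated from the FM and FC libraries alone. Of the 32 members tested there 6, all of them mRNAs, passed in FM against FC. All were lower, against 1.34% of all genes called in either direction. They were mt:ND1, mt:ND4, mt:ATPase6, mt:CoI, mt:CoIII and mt:Cyt-b, with log2 differences of -0.47 to -0.91 and edgeR adjusted p of 0.000171 to 0.0083. The median of the 13 mRNAs in FM against FC was -0.55 with the library class term, and all 13 were negative, where the median over all genes was 0.03.

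**Figure D3:**
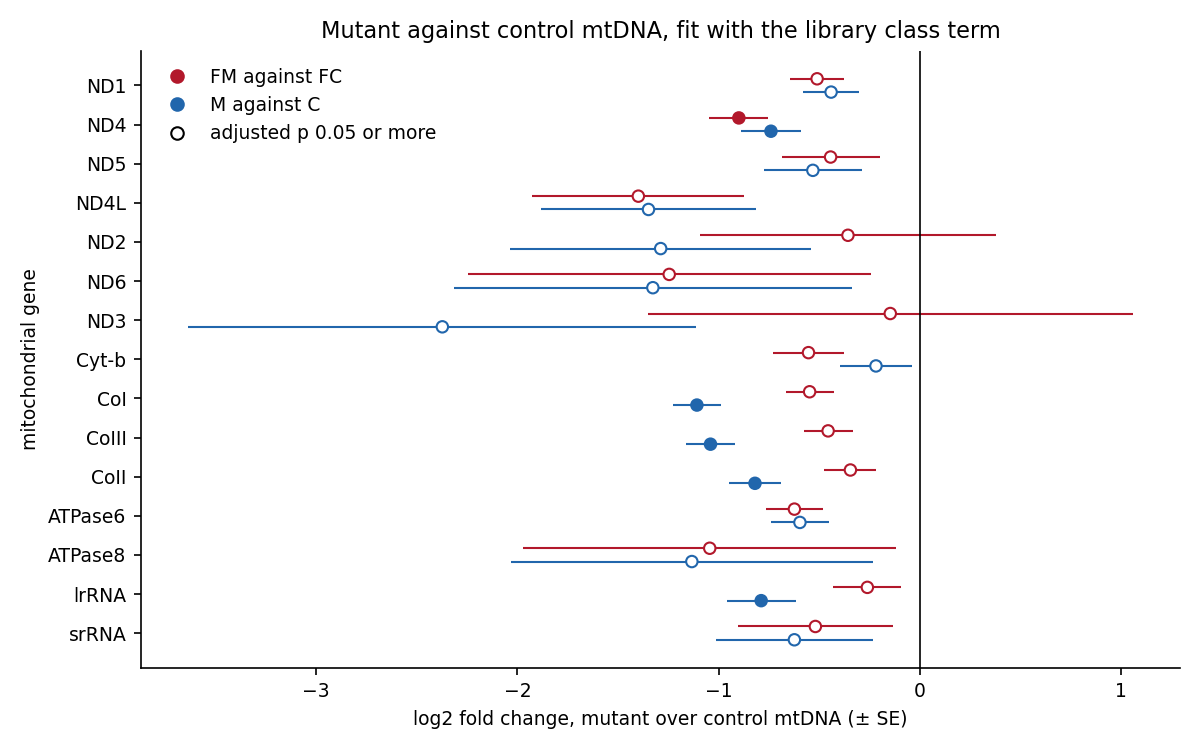
Log2 fold change of each mitochondrial mRNA and rRNA (y axis) for FM over FC (red, upper) and M over C (blue, lower) in the fit with the library class, with SE bars on the x axis. Filled points passed an edgeR adjusted p of 0.05; all 15 genes lie left of 0 in both comparisons, and the filled ones are mt:ND4 in both and mt:CoI, mt:CoII, mt:CoIII and mt:lrRNA in M over C.

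Averaged over both comparisons, 6 of the 25 members fell with mutant mtDNA and none rose, against 1.25% of all genes called in either direction and 0.372% lower. mt:CoI fell by 0.83 ± 0.09, mt:CoIII by 0.75 ± 0.09 and mt:CoII by 0.58 ± 0.09 on the log2 scale (SE; edgeR adjusted p = 0.000779, 0.00151 and 0.00894). mt:ND4 fell by 0.82 ± 0.10, mt:ATPase6 by 0.61 ± 0.10 and mt:ND1 by 0.48 ± 0.10 (edgeR adjusted p = 0.0025, 0.0123 and 0.0401). The members called thus came from complexes I, IV and V. mt:Cyt-b, the only mitochondrial mRNA of complex III, at -0.39 ± 0.13, and mt:lrRNA, at -0.52 ± 0.12, did not pass (edgeR adjusted p = 0.208 and 0.0671). mt:Cyt-b was at -0.22 ± 0.18 in M against C and -0.55 ± 0.18 in FM against FC. A difference between the complexes was not tested. M lower than C in both replicate numbers together with both FM below both FC held for 8 members, 7 of them mRNAs, against 5.48% of all genes. The call of mt:ND1 was lost without FC replicate 1 (edgeR adjusted p = 0.0780) and without FM replicate 1 (0.0783).

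Whether the mtDNA difference itself depends on FOXO knockdown turned on the libraries fitted. The interaction, FM against FC minus M against C, called 0 of 25 members with the library class, against 0.51% of all genes at the same adjusted threshold. At an unadjusted p under 0.05 there were 5 members, a count not set against all genes. DESeq2 called mt:CoI and mt:CoIII, against 2.43% of all genes. The largest differences among abundant members were positive, since these genes were lowered less in FM against FC than in M against C: mt:CoIII at 0.58 ± 0.17, mt:CoI at 0.56 ± 0.17, mt:lrRNA at 0.53 ± 0.24 and mt:CoII at 0.47 ± 0.18 (SE; edgeR adjusted p = 0.223, 0.235, 0.536 and 0.43). mt:ND1, mt:ND4 and mt:ATPase6 had -0.07 ± 0.19, -0.16 ± 0.21 and -0.03 ± 0.20. With the 6 high-rRNA libraries alone, where M and C have 1 library each whose spread is assumed to equal that of the others, mt:CoI at 0.70 ± 0.15 and mt:lrRNA at 0.86 ± 0.16 passed (edgeR adjusted p = 0.0136 and 0.00441), as did mt:tRNA:Tyr-GTA at -1.94, so that 3 of 32 members were called, against 1.59% of all genes. The values of mt:lrRNA and mt:tRNA:Tyr-GTA depended on the high-rRNA libraries of M and C. With the library class, mt:lrRNA was at 0.87 without M replicate 1 or C replicate 1, but at 0.19 without M replicate 2 and 0.21 without C replicate 2. mt:tRNA:Tyr-GTA was at -1.93 without M replicate 1 or C replicate 1, but at -0.25 without M replicate 2 and -0.23 without C replicate 2.

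FOXO knockdown was compared with no knockdown in each mtDNA background. These comparisons use the same libraries as those above, and no knockdown library belongs to the low-rRNA class. Without the class term, knockdown and class therefore cannot be told apart. With it, the class shift of each gene is estimated from M and C alone and assumed to be equal in both, which was not tested. In FC against C the median of the 13 mRNAs was -0.45 with the library class, all 13 negative, but 0.31 with 1 mean per group, where 4 were negative. The medians over all genes were -0.03 and -0.11. mt:ND4, with 58.5 and 45.8 CPM in FC against 3.61 and 114 CPM in C, fell by 1.12 ± 0.16 with the library class (SE; edgeR adjusted p = 0.00593). mt:CoI, with 921 and 888 CPM in FC against 452 and 1514 CPM in C, fell by 0.67 ± 0.13 (edgeR adjusted p = 0.0496). These were the 2 members called, against 0.571% of all genes in either direction and 0.173% lower. In both genes the FC libraries lay between the C libraries, below the high-rRNA one. The call of mt:CoI was lost without C replicate 2 (edgeR adjusted p = 0.252), without FC replicate 1 (0.142), with total counts (0.055), with RLE size factors (0.0533) and with sizes from nuclear genes (0.0518).

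In FM against M, 3 members fell with the library class, against 1.9% of all genes in either direction and 1.14% lower. mt:ND4, with 26.2 and 29.8 CPM in FM against 2.20 and 67.6 CPM in M, fell by 1.28 ± 0.16 on the log2 scale (SE; edgeR adjusted p = 0.00153). mt:ND1, with 1074 and 1122 CPM in FM against 6.12 and 1706 CPM in M, fell by 0.76 ± 0.15 (edgeR adjusted p = 0.0253), and this call was lost without FM replicate 1 (0.108). The complex IV mRNAs, which had fallen in M against C, lay within 1 SE of 0 in FM against M: mt:CoI at -0.11 ± 0.13, mt:CoII at -0.07 ± 0.14 and mt:CoIII at 0.06 ± 0.14. The median of the 13 mRNAs was -0.13 with the library class and 0.51 with 1 mean per group.

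The tRNAs were near the limit of detection. Of the 22, 17 had 0 counts in at least 1 library and 17 had fewer than 100 counts in all, and 10 passed the filter on low counts. A count of 0 allows up to 3 counts, which is 0.0239 to 0.191 CPM depending on the library. 2 sets of neighbouring tRNAs had identical counts in every library, mt:tRNA:Asn-GTT with mt:tRNA:Ser-GCT (44 counts each) and mt:tRNA:Glu-TTC with mt:tRNA:Phe-GAA (19 each). The members of the second set lie on opposite strands, and since the use of strand is not given, their reads cannot be told apart.

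mt:tRNA:Tyr-GTA stood above the other tRNAs, with 2127 of the 3284 tRNA counts. It had 7.82 and 6.89 CPM in FM, 13.96 and 11.2 in FC, 0.455 and 34.7 in M, and 0.645 and 15.6 in C. In FM against M it was the third member called, and fell by 1.96 ± 0.32 on the log2 scale (SE; edgeR adjusted p = 0.0093). That call rested on M replicate 2: without it the difference was -0.57 (edgeR adjusted p = 0.9998). M replicate 2 had 54.7 counts on this tRNA per 1000 on mt:CoI, against 10.3 to 15.2 in the other high-rRNA libraries. The gene is the neighbour of mt:CoI in the gene order, on the opposite strand. The next tRNAs by mean level were mt:tRNA:Cys-GCA, with 282 counts in all and 3.59 CPM at most, and mt:tRNA:Leu-TAA, with 143 counts and 3.62 CPM at most, and neither passed in any of the 6 comparisons with the library class.

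Nuclear genes for subunits of the same complexes were taken as a list beside the mitochondrial ones. By their names, 77 genes were taken for complexes I, III, IV and V, and 66 passed the filter. With the library class edgeR called none of the 66 in any comparison, against 0.164% to 2.08% of all genes at the same adjusted threshold. Of the 66, 5 to 11 had an unadjusted p under 0.05, a count not set against all genes. DESeq2 called 0 in M against C, 3 in FM against FC, 2 for the average and 4 for the interaction, all lower, and in FC against C 1, which was higher. In FM against M it called 3 lower and 1 higher. In the order M against C, FM against FC, average, interaction, FC against C and FM against M, it called 4.12%, 1.35%, 3.16%, 2.43%, 1.73% and 3.63% of all genes. In M against C their median log2 difference was 0.12, with 21 of 66 negative. In FM against FC the median was -0.10, with 42 negative. Averaged over both, 33 were negative and 33 positive, where all 13 mitochondrial mRNAs were negative with a median of -0.82. By complex, the averaged medians were 0.03 for 36 subunits of complex I, 0.01 for 10 of complex III, -0.04 for 8 of complex IV and -0.15 for 12 of complex V. In FM against FC complex V had 10 of its 12 subunits negative, with a median of -0.25 and 5 at an unadjusted p under 0.05, and DESeq2 called 2 of the 12, both lower. In M against C 4 of the 12 were negative, with a median of 0.12. This sets counts and medians side by side and is no test between the lists.

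**Figure D4:**
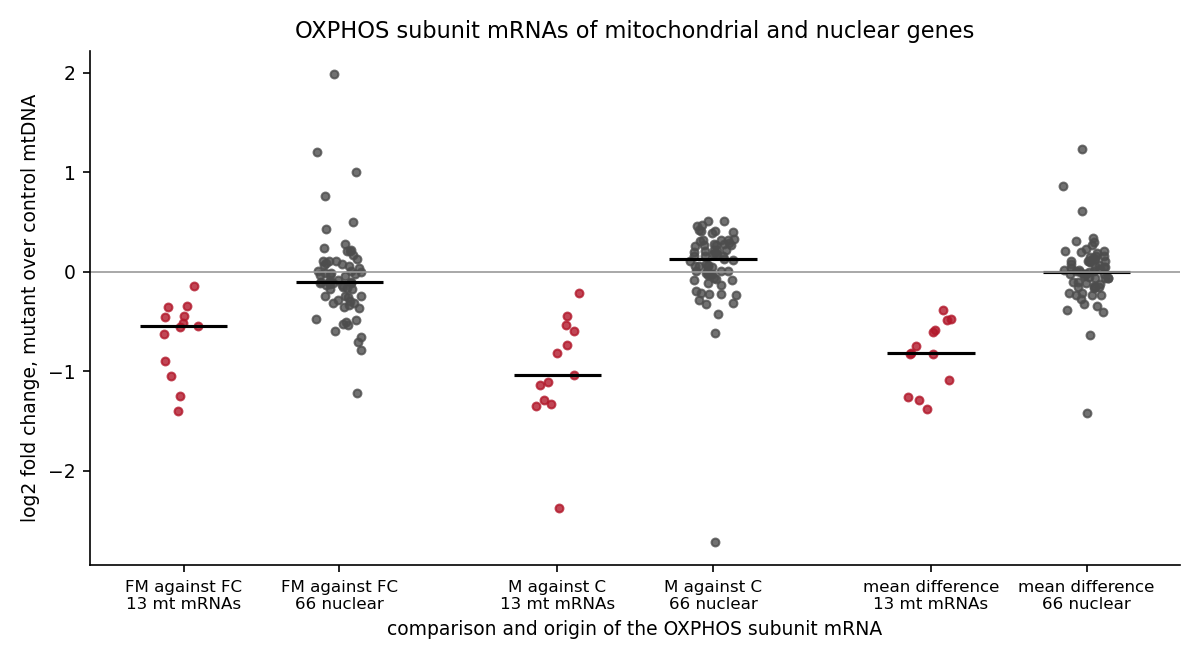
Log2 fold change (y axis) of the 13 mitochondrial mRNAs (red) and 66 nuclear subunit mRNAs (grey) of complexes I, III, IV and V, in the fit with the library class, for FM over FC, M over C and their average (x axis). Points are genes and bars are medians, which for the average lie at -0.82 for the mitochondrial and near 0 for the nuclear genes.

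The nuclear genes that make, cut and stabilise mitochondrial RNA were also taken as a list. Among its 18 genes are TFAM, which packages mtDNA, and PolrMT, the mitochondrial RNA polymerase. None of the 18 passed in any comparison with the library class, by edgeR or DESeq2, 0 to 2 had an unadjusted p under 0.05 by edgeR, and the medians were 0.12 in M against C and 0.09 in FM against FC. Their summed level was 124 in both FM libraries, 123 and 125 in FC, 213 and 135 in M, and 181 and 119 in C, in CPM. Of 5 genes for mtDNA replication none passed either, and 1 had an unadjusted p under 0.05, in FM against M.

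Some cell type markers also passed in M against C, where edgeR called 2.08% of all genes with the library class. The enterocyte markers summed to 5810 and 5900 CPM in FM, 5998 and 6359 in FC, 13770 and 5982 in M, and 10506 and 5014 in C. RNA of these marker genes of absorptive cells was thus abundant in libraries labelled as stem cells. The sums rest mostly on a few genes, and nub and Myo31DF of the same list had 68.9 to 155 CPM. How this RNA came into the libraries was not tested. The 7 progenitor markers summed to 70.3 and 71.6 CPM in FM, 81.2 and 84.0 in FC, 76.6 and 48.8 in M, and 122 and 72.1 in C. In M against C all 7 were negative, with a median of -0.90, and Dl, the Notch ligand of stem cells, and Sox100B fell by 0.99 ± 0.18 and 0.90 ± 0.19 on the log2 scale (SE; edgeR adjusted p = 0.0148 and 0.0341). The 6 visceral muscle markers summed to 1044 and 945 CPM in FM, 789 and 781 in FC, 1150 and 1568 in M, and 1279 and 670 in C. All 6 were positive in M against C, and up, a troponin T, rose by 0.72 ± 0.13 (edgeR adjusted p = 0.0121). Of the enterocyte markers 6 of 7 were positive, and betaTry, a trypsin gene, rose by 0.58 ± 0.13 (edgeR adjusted p = 0.0482). The 6 enteroendocrine markers summed to 104 to 109 CPM in FM, 107 to 119 in FC, 63.4 to 82.3 in M and 75.5 to 98.4 in C, and 4 of the 6 were negative in M against C, with a median of -0.37. NPF, a gut peptide hormone, rose there by 2.05 ± 0.30 (edgeR adjusted p = 0.00541), the only one of the 6 called by edgeR, while DESeq2 called 1 higher and 3 lower. DESeq2 called 3 progenitor markers lower, and 3 enterocyte and 2 muscle markers higher, in M against C, against 4.12% of all genes in either direction. For the average, where edgeR called 1.25% of all genes, Dl and Sox100B fell, and betaTry, up and NPF rose. Mal-A1, a maltase, rose by 0.40 ± 0.09 and AstA, a peptide hormone, fell by 0.63 ± 0.11 (edgeR adjusted p = 0.0496 and 0.0219). Of the enterocyte markers 4 of 7 were positive, with a median of 0.04. Of the enteroendocrine markers 4 of 6 were negative, with a median of -0.22. All 7 progenitor markers were negative and all 6 muscle markers positive, with medians of -0.62 and 0.30. NPF rose by 2.01 ± 0.37 in FC against C (edgeR adjusted p = 0.0323), where 4 of the 6 enteroendocrine markers were positive, with a median of 0.11. Mal-A1 rose by 0.79 ± 0.14 and AstC, another peptide hormone, by 1.101 ± 0.20 in FM against M (edgeR adjusted p = 0.0125 and 0.0138). There, 5 of the 7 enterocyte markers were negative, with a median of -0.11. Of the 6 enteroendocrine markers 4 were positive, with a median of 0.12. DESeq2 called 1 enterocyte marker higher and 2 lower, and 1 enteroendocrine marker higher, against 3.63% of all genes in either direction. In FM against FC edgeR called no marker, with 2 progenitor, 3 enterocyte and 2 enteroendocrine markers at an unadjusted p under 0.05. DESeq2 called 1 enterocyte marker higher and 1 lower there, against 1.35% of all genes. For the interaction edgeR called none, with 3 enterocyte, 3 enteroendocrine and 3 muscle markers at an unadjusted p under 0.05. DESeq2 called 2 enterocyte markers and 1 enteroendocrine marker lower, against 2.43% of all genes. The marker counts at an unadjusted p were not set against all genes. No marker was at 0 in any library, and the part of these cell types in the mitochondrial differences was not tested.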

How the data were processed

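Per the submitters' processing notes, FastQC, cutadapt, HISAT2, featureCounts and limma were used, with no versions. Build, annotation, read filters and use of strand are not given in the sources used here, so no coordinates are printed. The authors deposited 1 table of counts, whole reads per gene, not normalized. Column names carry the group and replicate that the sample titles give. The 136 nuclear rRNA genes were found by name.

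The deposited counts went unchanged into edgeR 4.0.16 (R 4.3.3): filterByExpr (11561 genes), TMM (factors 0.629 to 3.194), two-sided quasi-likelihood F-tests over all 8 libraries with 1 mean per group, and Benjamini-Hochberg adjustment over all genes at 0.05. A second fit adds a library class (nuclear rRNA under or over 50% of counts). SE is the log2 fold change over the square root of F. Other alternatives were RLE factors, total counts, sizes from nuclear genes, DESeq2 1.42.0, other filters, a replicate block and left-out libraries. By raw counts and library totals with nuclear rRNA included, replicates of each group differed by more than sampling noise (median chi-square 1.98 to 195.5 per gene, 0.455 under sampling noise alone). The fits were also run on simulated counts, with no class shift or with 1 shift per gene shared by M and C. That simulation cannot show whether the class shift is equal in M and C. Members, lists and the rule for naming genes (every mitochondrial mRNA and rRNA, the 3 highest tRNAs, and nuclear list members past the threshold) were chosen with earlier results of these data known. Plots came from matplotlib 3.10.9 (Python 3.11.15).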

Additional observations from a re-analysis of the deposited data

How the results depend on the processing

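With 1 mean per group over all 8 libraries, 0 members were called under each other scaling, filter and tool and under the replicate block. Fitting only the libraries compared called 3 in FM against FC (0.756% of all genes) and 0 in M against C, FC against C and FM against M. Same-numbered libraries deviated together in M and C (correlation 0.669) and not in the other pairs (-0.038 to 0.0037), so the numbers do not pair libraries over all groups, though in both M and C replicate 1 is the low-rRNA library; under the block mt:ND4 and mt:CoI in FC against C were at 1.43 and 0.117, and mt:ND4 and mt:tRNA:Tyr-GTA in FM against M at 1.09 and 0.368. The cause was not tested.

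The fit with the library class called 5 members in M against C, 1 in FM against FC, 6 for the average, 0 for the interaction, 2 in FC against C and 3 in FM against M, of 25 members. It called 2.08%, 0.164%, 1.25%, 0.51%, 0.571% and 1.9% of all genes. In the same order, the 6 high-rRNA libraries alone, also with 1 mean per group, called 8, 6, 10, 3, 7 and 4 of 32 members (1 of the 8 higher, and 2 of the 3) and 2.08%, 1.34%, 2.44%, 1.59%, 2% and 3.3% of all genes. With the class term, total counts called 5, 0, 7, 0, 1 and 3 (0% to 0.874% of all genes), RLE factors and nuclear sizes each 5, 1, 6, 0, 1 and 3 (0.182% to 2.07%), DESeq2 7, 5, 8, 2, 5 and 4 (4.12%, 1.35%, 3.16%, 2.43%, 1.73% and 3.63%), and no filter 9, 5, 11, 1, 5 and 4 of 37 members (3.27%, 1.03%, 2.7%, 1.62%, 1.67% and 2.67%), so member counts and counts over all genes rose together with DESeq2 and with no filter. An alternative chosen after seeing the data, the class term on M and C alone, called 0 members and 0.562% of all genes. Direction turned for mt:ND1 against the fit with 1 mean per group. In FC against C it was -0.69 with the class, -0.80 in the 6 libraries, and -0.93, -0.69, -0.69, -0.70 and -0.71 with total counts, RLE, nuclear sizes, DESeq2 and no filter. In FM against M these were -0.76, -0.64, -0.89, -0.77, -0.76, -0.76 and -0.77. Total counts moved the median of all genes to -0.33 in M against C, -1.60 in FC against C and -1.30 in FM against M. As a percent of all counts, the mitochondrial share was 0.415 and 0.424 in FM, 0.616 and 0.58 in FC, 0.276 and 0.495 in M, and 0.569 and 1.03 in C.

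Leaving out 1 library at a time, the class fit tested 29 to 32 members, and the share of all genes called is given in brackets. Without 1 M or C library, M against C sets 1 library of each side by side. The spread then comes from FM and FC alone, so these counts carry that limit. It called 3 to 10 members in M against C: 3 without M replicate 2 (2.99%) or C replicate 2 (2.97%), 10 without M replicate 1 (2.35%) and 9 without C replicate 1 (2.12%). It called 0 to 6 in FM against FC: 0 without FM replicate 1 (0.223%) or FC replicate 1 (0.0645%), 6 without any M or C library (1.32% to 1.52%) and 5 without FC replicate 2 (5.38%). It called 5 to 11 for the average: 5 without FM replicate 1 (0.978%) or FC replicate 1 (1.07%), 11 without FC replicate 2 (5.95%) and 10 without M replicate 1 (2.76%) or C replicate 1 (2.52%). For the interaction it called 0 to 4: 0 without any FM or FC library (0.358% to 4.03%), 4 without M replicate 1 (1.77%) and 3 without C replicate 1 (1.59%). It called 1 to 8 in FC against C: 1 without FC replicate 1 (0.524%), 8 without M replicate 1 (2.18%) and 7 without M replicate 2 (2.02%) or C replicate 1 (1.97%). In FM against M it called 2 to 4: 2 without FM replicate 1 (0.946%) and 3 or 4 otherwise (1.02% to 3.45%). With 1 mean per group these fits called 0 members each. mt:CoI, mt:CoII, mt:CoIII, mt:ND4 and mt:ATPase6 were called for the average in each of the 14 settings with the class term, and mt:ND1 in 12.

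Some log2 differences changed sign when a library was left out. With the class term, mt:Cyt-b in M against C was at 0.11 and 0.075 and mt:srRNA at 0.0502 and 0.015 without M replicate 2 and without C replicate 2, where mt:tRNA:Tyr-GTA was at -0.51 and -0.54. Without M replicate 1 or C replicate 1 these genes were at -0.53, -1.28 and 1.17. Without FC replicate 1, mt:ND5 and mt:srRNA in FM against FC were at 0.061 and 0.342. mt:ND1 ranged over -0.8151 to -0.33 in FC against C (-0.7045, -0.6999, -0.7011 and -0.7023 without 1 of the FC and FM libraries, -0.81 without C replicate 1 or M replicate 2) and over -1.144 to -0.6419 in FM against M (-0.7407 without FM replicate 1). With 1 mean per group, where leaving out an M or C library leaves the groups in different classes, the ranges in M against C were -3.86 to 1.81 for mt:CoIII, -7.77 to 6.96 for mt:ND1, -4.70 to 3.27 for mt:ND4, -2.57 to 1.60 for mt:ND5, -3.17 to 2.04 for mt:ATPase6, -2.50 to 2.16 for mt:Cyt-b, -2.20 to 0.77 for mt:lrRNA, -1.89 to 0.93 for mt:srRNA and -4.08 to 4.75 for mt:tRNA:Tyr-GTA. In FM against FC they were -0.79 to 0.064 for mt:ND5 and -1.03 to 0.346 for mt:srRNA. For the average they were -2.15 to 0.68 for mt:CoIII, -2.79 to 1.18 for mt:ND4, -1.89 to 0.70 for mt:ATPase6 and -4.14 to 3.22 for mt:ND1. In FC against C they were -1.14 to 3.85 for mt:ND4, -0.75 to 1.00 for mt:CoI and -0.81 to 7.83 for mt:ND1. In FM against M they were -1.28 to 3.64 for mt:ND4, -0.64 to 7.45 for mt:ND1 and -2.25 to 3.98 for mt:tRNA:Tyr-GTA. For the interaction they were -0.48 to 1.52 for mt:CoI, -2.28 to 3.41 for mt:CoIII, -1.04 to 1.95 for mt:lrRNA and -5.53 to 3.32 for mt:tRNA:Tyr-GTA. The median of the mRNAs ranged over -2.04 to 2.14 for the interaction, -0.50 to 2.70 in FC against C and -0.15 to 2.62 in FM against M.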
